A study of Mus musculus with 15 samples.

Results

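The complement genes of mouse bone marrow derived macrophages (BMDMs) were followed through RANKL and LPS stimulation. The set was chosen by gene name and holds 8 of the 20089 genes in the expression table, namely *C1qa*, *C1qb*, *C1qc*, *C3*, *Cfb*, *Cfp*, *C3ar1* and *C5ar1*. BMDMs are macrophage precursors grown from marrow, here of wild-type mice. Receptor activator of NF-κB ligand (RANKL) drives them towards the bone-resorbing osteoclast, and lipopolysaccharide (LPS), a bacterial cell wall component, activates them as inflammatory macrophages. RNA-seq covered 15 samples in 5 groups of 3. The control group received M-CSF, the growth factor that keeps macrophages alive. The other groups received M-CSF with RANKL for 4 h, M-CSF with RANKL for 72 h (3 days in the labels), M-CSF with LPS for 4 h, or M-CSF with LPS for 72 h. The labels give no culture time for the control cells, which serve as the reference for both times, so at 72 h the stimulus and the time in culture cannot be told apart except between RANKL and LPS. The labels also do not say whether the samples of a group came from separate mice or cultures, so p-values measure only the spread between these samples.

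Complement is a cascade of proteins that marks microbes, immune complexes and dying cells for removal. In the classical pathway, C1q recognises the target. In the alternative pathway, factor B joins deposited C3 to form an enzyme that cleaves more C3, and properdin holds this enzyme together. The fragments C3a and C5a released on the way act on cells through the receptors C3AR1 and C5AR1. The liver makes most circulating complement, and macrophages add their own, with C1q and properdin coming largely from myeloid cells.

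*Cfb* and *C3*, which encode the proteins of the alternative pathway enzyme, were called lower than control in RANKL 72 h and higher in LPS 4 h. In RANKL 72 h, *Cfb* fell to 12.5% of the control mean and *C3* to 61.2%, and the receptor gene *C3ar1* fell with them. The call of *C3* in RANKL 72 h was narrow, being lost in 5 of 6 omissions of a replicate. After 4 h of LPS, *Cfb* stood at 347% and *C3* at 176% of the control mean. Both were also called higher in LPS 72 h, but each of these calls was lost in 4 of 6 omissions. The 3 C1q genes were among the most abundant mRNAs of the cells in every group, and *C1qb* and *C1qc* were called lower in LPS 72 h. The call of *C1qc* was kept under every alternative and with any replicate left out, whereas that of *C1qb* was lost in 4 of 6 omissions. After 4 h of RANKL, no member passed the test. Only 0.111% of all genes tested were called higher there and 0.00852% lower, so this says little about complement genes.

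Expression was given as FPKM, that is, fragments relative to the length of the exons and the number mapped, which allows levels of genes to be set side by side per length. A gene was called when its fold change on the log2(FPKM + 0.1) scale was above 1.5 or below 0.66 with a Benjamini-Hochberg adjusted p under 0.05 in limma, over 11743 genes tested in a single fit of all samples. Fold changes on this scale understate those of genes with low FPKM. All 8 members passed the filter on low values, a mean of at least 0.1 FPKM. Each sample held 18306184 to 20330207 fragments on listed genes. The third LPS 72 h sample stood apart from its group. Its values deviated from the group mean by a root mean square of 0.449 on the log2 scale, against 0.190 to 0.315 in the other 14 samples. Results of members in LPS 72 h against control are therefore given with and without it, and those of other listed genes with all samples unless stated. Its summed FPKM of 10 LPS response markers was 2133, against 4604 and 4328 in replicates 1 and 2. For the 7 macrophage markers it was 17151, against 5797 and 7629. For 8 neutrophil and precursor genes it was 1115, against 119 and 143. The part of these differences in the values of complement genes was not tested. In LPS 4 h the median of all genes tested lay 0.52 below control on the log2 scale, against shifts of 0.00 to 0.16 in the other groups. Macrophage markers were present in every group, with none of 7 at 0, and 9 of 10 osteoclast markers rose in RANKL 72 h. No stromal, B cell or neutrophil and precursor marker was at 0 in any group either, so presence alone does not measure purity. In control, the summed FPKM of 8 neutrophil and precursor genes was 4759 to 14197, against 7317 to 9041 for the 7 macrophage markers.

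**Figure D1:**
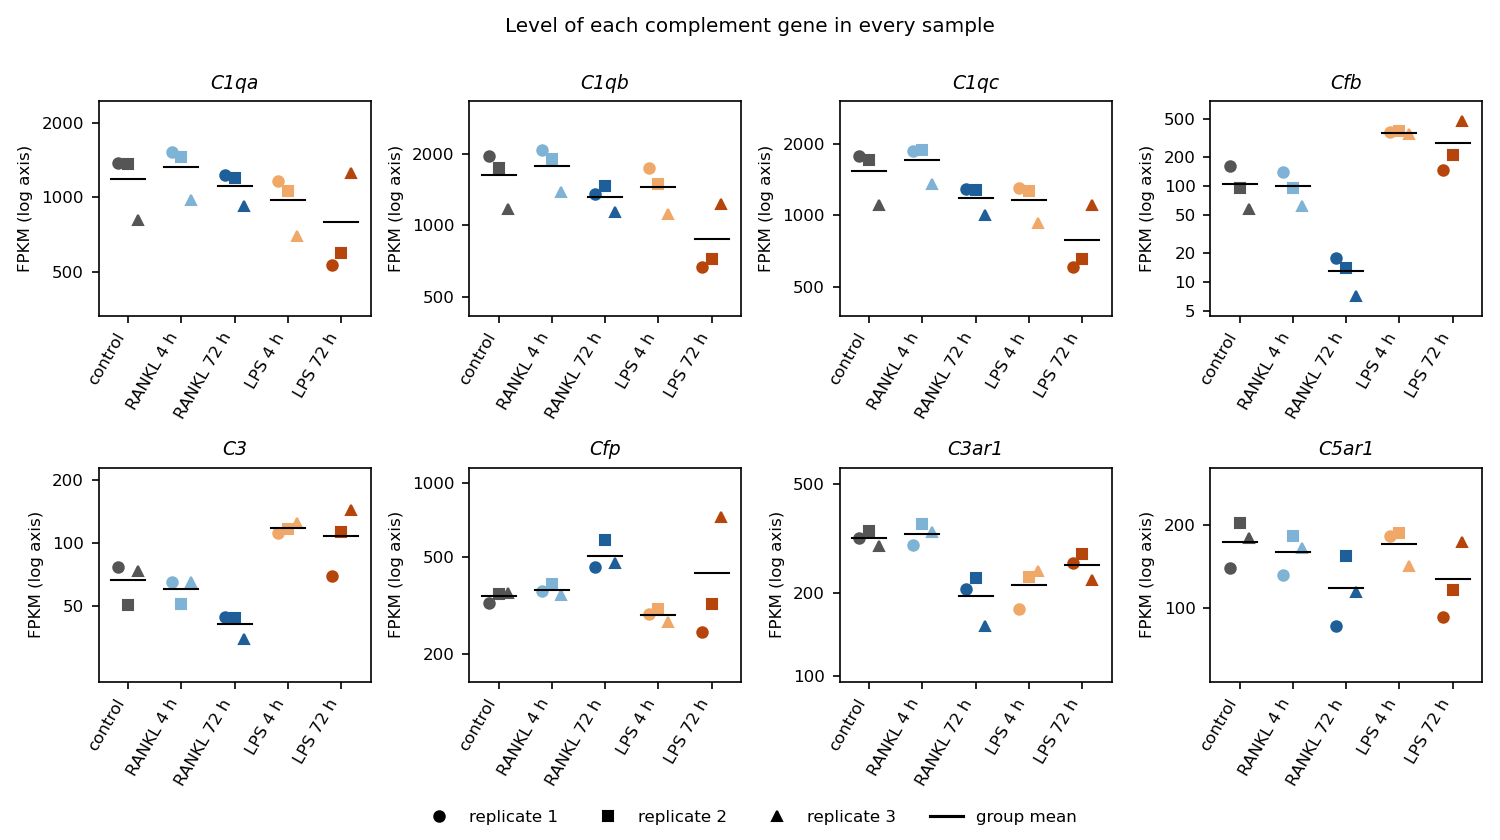
FPKM on a logarithmic axis of each complement gene in every sample of the 5 groups. Circles, squares and triangles are replicates 1, 2 and 3, and lines are group means. *Cfb* spans from 7.09 to 17.9 FPKM in RANKL 72 h to 350.3 to 372 FPKM in LPS 4 h, whereas no C1q gene lies below 532 FPKM in any sample.

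*C1qa*, *C1qb* and *C1qc* encode the A, B and C chains that assemble into C1q. They lie side by side on the minus strand of chromosome 4 in the GENCODE M21 annotation of GRCm38, with *C1qb* from 136880129 to 136886187, *C1qc* from 136889804 to 136893065 and *C1qa* from 136895917 to 136898803. The cluster spans 18675 bases, with 3616 bases between *C1qb* and *C1qc* and 2851 between *C1qc* and *C1qa*. No other annotated gene overlaps them. The 250 bases before the RefSeq start of *C1qb* (GRCm38.p6, chromosome 4, 136886201 to 136886450, minus strand) and of *C1qc* (136892915 to 136893164, minus strand) are shown because these neighbours moved together. Capitals mark GAGGAA, the core letters bound by PU.1, the main macrophage transcription factor, on either strand (TTCCTC when read on the other), and in *C1qc* also a match to the κB consensus of NF-κB.
C1qb: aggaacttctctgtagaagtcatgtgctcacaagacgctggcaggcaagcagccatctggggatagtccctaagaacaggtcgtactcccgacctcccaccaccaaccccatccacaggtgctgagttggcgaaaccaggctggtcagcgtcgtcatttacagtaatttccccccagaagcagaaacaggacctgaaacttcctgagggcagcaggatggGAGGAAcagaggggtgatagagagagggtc
C1qc: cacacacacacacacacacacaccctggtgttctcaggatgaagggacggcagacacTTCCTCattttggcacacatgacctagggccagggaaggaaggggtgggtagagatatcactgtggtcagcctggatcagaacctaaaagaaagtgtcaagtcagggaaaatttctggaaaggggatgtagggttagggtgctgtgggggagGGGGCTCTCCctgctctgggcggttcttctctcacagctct
GAGGAA lay 30 to 25 bases before the start of *C1qb*, and on the opposite strand 193 to 188 bases before that of *C1qc*. The κB match lay 41 to 32 bases before the RefSeq start of *C1qc*. That start lies downstream of the GENCODE one, so the κB match falls inside the gene as GENCODE draws it. Of 32851 annotated promoter windows of the same length, 23.3% hold GAGGAA and 7.25% the κB consensus on either strand, so such matches describe the sequence and are no evidence of binding. Of the 8 members, 6 matched the RefSeq promoter table.

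The C1q genes stood far above the other members in control cells. *C1qb* had 1957, 1740.0 and 1173 FPKM in the 3 control samples, *C1qc* 1779.9, 1714 and 1107 FPKM, and *C1qa* 1374, 1367 and 806 FPKM. By their control means they ranked 25, 27 and 41 among the 20089 genes, and together they made up 0.722 to 1.12% of the summed FPKM of the table. For each chain the third sample was the lowest of its group, except in LPS 72 h, where it was the highest. The third control sample held only about 60% of the level of the other 2, so the spread within the control group was large.

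Under RANKL no chain was called against control. *C1qa* had 1527, 1461 and 971 FPKM in RANKL 4 h and 1229, 1194 and 918 FPKM in RANKL 72 h. For *C1qb* the values were 2079, 1894 and 1383 FPKM in RANKL 4 h and 1350.3, 1471 and 1137 FPKM in RANKL 72 h. *C1qc* had 1862, 1881 and 1355 FPKM in RANKL 4 h and 1287, 1275 and 1001 FPKM in RANKL 72 h. All of these ranges overlapped those of control, and none of the 6 differences passed the test. The largest was that of *C1qc* in RANKL 72 h, at a log2 fold change of -0.35 (SE 0.26, adjusted p = 0.32) in limma. With the level of 18 stromal marker genes as a covariate, *C1qb* and *C1qc* were called lower in RANKL 72 h, at -0.80 (adjusted p = 0.0205) and -0.86 (adjusted p = 0.0106), so whether they were called depended on the model.

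The B and C chains were called lower in LPS 72 h than in control. In LPS 4 h, *C1qa* had 1164, 1061 and 695 FPKM, *C1qb* 1745, 1489 and 1122 FPKM and *C1qc* 1297, 1266 and 927 FPKM, and these log2 fold changes of -0.38 to -0.15 did not pass the test. They were smaller than the shift of the median gene in that group, and after centring samples on their median gene all 3 turned positive, from 0.18 to 0.42. In LPS 72 h, *C1qa* had 532, 594 and 1251 FPKM, *C1qb* 668, 722 and 1235 FPKM and *C1qc* 608, 659 and 1103 FPKM. Replicates 1 and 2 lay below every control sample for each chain, whereas replicate 3 overlapped the control range of *C1qa* and *C1qb* and lay just under that of *C1qc*. The log2 fold change was -0.91 (SE 0.27, adjusted p = 0.0179) for *C1qb*, -0.98 (SE 0.26, adjusted p = 0.00948) for *C1qc* and -0.65 (SE 0.33, adjusted p = 0.14) for *C1qa* in limma, so the first 2 were called. Without replicate 3 all 3 chains were called, at -1.03 for *C1qa*, -1.19 for *C1qb* and -1.25 for *C1qc*. The call of *C1qb* was lost when either of replicates 1 and 2 of LPS 72 h or of control was left out, with values over the 6 omissions given in the closing section.

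**Figure D2:**
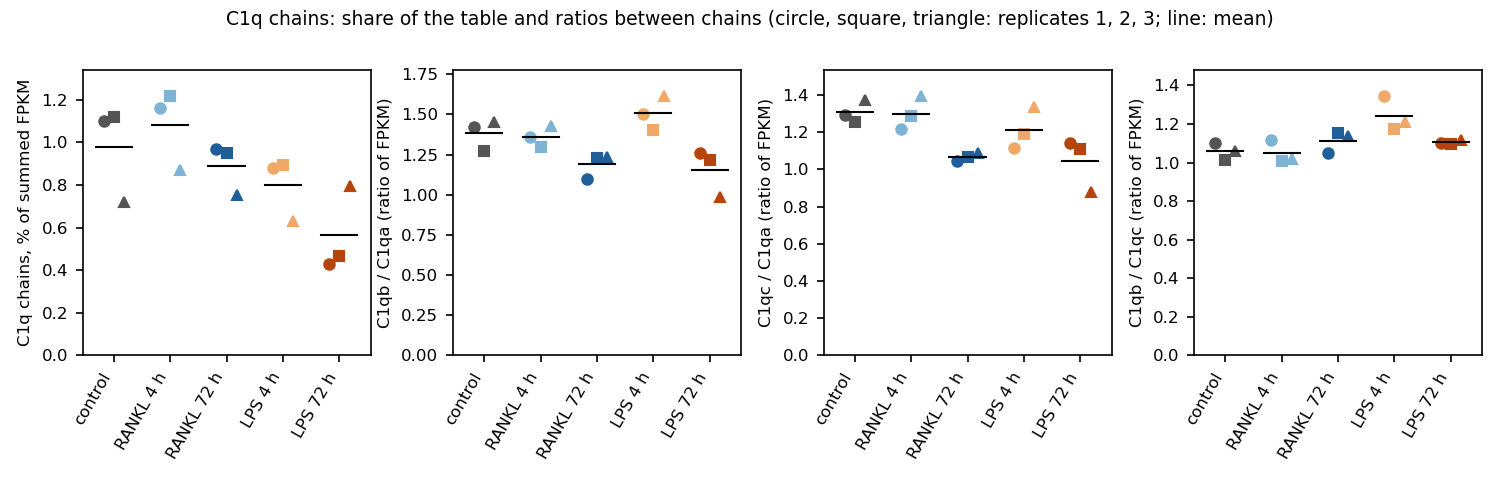
Summed FPKM of the 3 C1q genes as a percentage of all FPKM in the table, and ratios of FPKM between chains, by group. Symbols are replicates 1 (circle), 2 (square) and 3 (triangle) and lines are means. The share is 0.430 to 0.797% in LPS 72 h against 0.722 to 1.12% in control, and the ratios of the B and C chains to the A chain lie lower in both 72 h groups than in control.

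The measured ratios between chains differed between groups, in comparisons too small to be called. *C1qb* over *C1qa* was 1.27 to 1.45 in control, 1.10 to 1.24 in RANKL 72 h and 0.987 to 1.26 in LPS 72 h. *C1qc* over *C1qa* was 1.25 to 1.37 in control, 1.05 to 1.09 in RANKL 72 h and 0.881 to 1.14 in LPS 72 h. Neither ratio overlapped between control and either 72 h group, and how often ratios of other gene pairs separate in this way was not measured. Each of these comparisons had p = 0.1 in a two-sided exact permutation test, the smallest that 3 against 3 samples allow, and they belong to a family of 20 ratios and sums compared with control, so no call was possible. In LPS 4 h, *C1qb* over *C1qc* was 1.18 to 1.35 against 1.02 to 1.10 in control (exact permutation p = 0.1).

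*Cfb* encodes factor B, the serine protease of the alternative pathway enzyme. It lies on chromosome 17 from 34856374 to 34862518 on the minus strand, where it overlaps the readthrough gene Gm20547. Upstream of it on the same strand, with 85 bases between them, lies *C2*, its classical pathway counterpart. Reads of these neighbours could be shared in counting, and whether the counting used strand is not given in the sources used here. Control samples held 160.3, 95.6 and 56.9 FPKM of *Cfb*, or 3152 to 9530 fragments, and RANKL 4 h samples 140.5, 94.8 and 62.3 FPKM. RANKL 72 h samples held 17.9, 14.0 and 7.09 FPKM, or 396 to 968 fragments. Every RANKL 72 h sample was far below every control sample, although the control samples themselves differed by almost a factor of 3. Between samples of the same number the ratio of RANKL 72 h to control was 0.112, 0.147 and 0.124. The log2 fold change was -2.97 (SE 0.46, adjusted p = 0.000424) in limma, 7.83-fold lower, and it passed under every alternative and with any replicate left out. By its mean, *Cfb* moved from rank 610 in control to rank 4372 in RANKL 72 h. Stromal marker RNA was above control in 2 of the 3 RANKL 72 h samples, with a summed FPKM of 18 genes of 2889, 1275 and 635 against 428 to 720 in control, and with it as a covariate the fall of *Cfb* was larger, at -4.09.

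*Cfb* was called higher in both LPS groups. The LPS 4 h samples held 363, 372 and 350.3 FPKM, all above control and close to each other. LPS 72 h samples held 148, 209 and 479.7 FPKM, a spread that covered part of the control range. The log2 fold change was 1.92 (SE 0.46, adjusted p = 0.00274) in LPS 4 h and 1.36 (SE 0.46, adjusted p = 0.0336) in LPS 72 h (limma). The late call was lost without LPS 72 h replicate 2 or 3 or control replicate 2 or 3, with no filter, with median centring and with only these groups in the fit. Without LPS 72 h replicate 3, the highest, the value was 0.88 (adjusted p = 0.126).

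*C3* encodes the central protein that all complement pathways cleave. The gene lies on chromosome 17 from 57203970 to 57228136 on the minus strand and holds the microRNA gene Mir6978. The 250 bases before its RefSeq start (GRCm38.p6, chromosome 17, 57228137 to 57228386, minus strand) are shown because *C3* was higher in LPS 4 h. Capitals mark TTNNGNAAT, letters bound by C/EBP factors, found 45 to 37 bases before the start.
C3: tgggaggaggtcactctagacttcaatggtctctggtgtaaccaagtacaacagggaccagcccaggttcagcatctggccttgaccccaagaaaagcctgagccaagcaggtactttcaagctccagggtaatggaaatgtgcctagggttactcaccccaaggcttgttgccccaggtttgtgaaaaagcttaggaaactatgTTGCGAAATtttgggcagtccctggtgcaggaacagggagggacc
Of all promoter windows, 10.2% hold TTNNGNAAT on either strand. The κB consensus had no match in this window.

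*C3* moved with *Cfb* but over a smaller range. Control samples held 77.3, 50.6 and 73.5 FPKM of *C3*, or 5614 to 8647 fragments, and RANKL 4 h samples 65.2, 51.2 and 65.7 FPKM. RANKL 72 h samples held 44.6, 43.8 and 34.8 FPKM, all below the lowest control sample, a log2 fold change of -0.69 (SE 0.23, adjusted p = 0.0345) in limma. This call was narrow, since it was lost when any RANKL 72 h replicate or control replicate 1 or 3 was left out, and also when samples were rescaled to equal summed FPKM. LPS 4 h samples held 112, 117 and 125 FPKM, all above control and within a narrow range, a log2 fold change of 0.84 (SE 0.23, adjusted p = 0.00633) that was kept under every alternative. LPS 72 h samples held 69.4, 113 and 144 FPKM, of which replicate 1 lay within the control range. The late log2 fold change was 0.66 (SE 0.23, adjusted p = 0.038) in limma, and 0.42 (adjusted p = 0.135) without replicate 3. This call too was lost without LPS 72 h replicate 2 or 3 or control replicate 2 or 3, and under 4 alternatives, namely no filter, median centring, only these groups in the fit and no trend.

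*Cfp* encodes properdin, which stabilises the alternative pathway enzyme. Its gene occupies 20925454 to 20931555 of chromosome X, minus strand. Control samples held 323, 353 and 355 FPKM, RANKL 4 h samples 361, 388 and 348 FPKM and RANKL 72 h samples 454, 583 and 472 FPKM. All RANKL 72 h samples exceeded all control samples, but the log2 fold change of 0.54 (SE 0.28, adjusted p = 0.152) did not pass the test in limma. LPS 4 h samples held 292, 305 and 269.6 FPKM, all below control (-0.25, adjusted p = 0.46 in limma), and after centring samples on their median gene the sign turned, to 0.32. LPS 72 h samples held 245, 318 and 725 FPKM, on both sides of control. Replicate 3 alone set the sign there, which was 0.16 with it and -0.30 without it.

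*C3ar1* encodes the receptor of C3a and lies on chromosome 6 from 122847138 to 122856161 on the minus strand. Control samples held 318, 337 and 298 FPKM, RANKL 4 h samples 299, 357 and 333 FPKM and RANKL 72 h samples 206, 228 and 153 FPKM. The late samples lay below all control samples, a log2 fold change of -0.72 (SE 0.16, adjusted p = 0.00506) in limma. Without RANKL 72 h replicate 3, the lowest of them, the value was -0.55 (adjusted p = 0.0236) and was not called. LPS 4 h samples held 175, 229 and 241 FPKM and LPS 72 h samples 256, 279 and 224 FPKM. Both groups also lay wholly below control, with log2 fold changes of -0.57 (SE 0.16, adjusted p = 0.00782) and -0.33 (SE 0.16, adjusted p = 0.128) in limma. The first of these had a fold of 0.672, just short of the threshold, and equalled the shift of the median gene in LPS 4 h to within 0.1. Without LPS 72 h replicate 3 the value in LPS 72 h was -0.25 and was not called.

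*C5ar1* encodes the main receptor of C5a and lies on chromosome 7 from 16246743 to 16259540 on the minus strand. Control samples held 139.8, 203 and 179.6 FPKM, RANKL 4 h samples 132, 182 and 166 FPKM and RANKL 72 h samples 85.7, 154 and 114 FPKM. LPS 4 h samples held 182, 188 and 142 FPKM and LPS 72 h samples 92.3, 116 and 174 FPKM. Every stimulated group overlapped control, and no difference was called. The lowest estimates were those of the 72 h groups, with log2 fold changes of -0.58 (SE 0.25, adjusted p = 0.0872) under RANKL and -0.48 (SE 0.25, adjusted p = 0.144) under LPS in limma. Blocking on replicate number gave an adjusted p of 0.0379 under RANKL in limma, and the fold of 0.667 stayed short of the threshold of 0.66. Without LPS 72 h replicate 3 the value under LPS was -0.73 (adjusted p = 0.0259) and was called. RNA of neutrophils and their precursors, cells that also carry this receptor, was lower in both groups. The summed FPKM of 8 such genes was 4759 to 14197 in control, 999 to 4150 in RANKL 72 h and 119 to 1115 in LPS 72 h, and its part in the values of *C5ar1* was not tested. In bulk RNA, fewer cells of a type and less RNA per cell cannot be told apart.

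**Figure D3:**
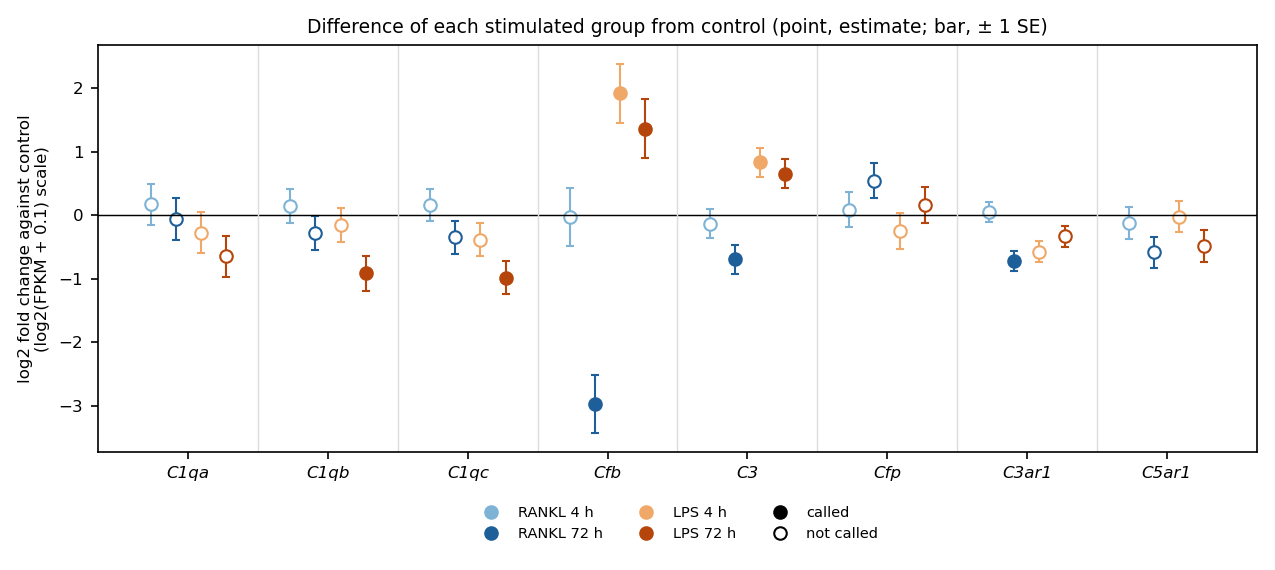
Estimated log2 fold change of each member against control in the 4 stimulated groups, with bars of 1 standard error from the limma fit. Filled points passed the threshold on fold and adjusted p. *Cfb* lies at -2.97 in RANKL 72 h and at 1.92 in LPS 4 h, and all RANKL 4 h points are open.

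Counts of called members were read against the share of all tested genes called in the same comparison. In RANKL 4 h, 0 of 8 members were called in limma, where 0.111% of all genes were higher and 0.00852% lower, so this count says little about the members. It was also 0 with an unadjusted p under 0.05 or in limma voom. In RANKL 72 h, 3 of 8 members were lower and 0 higher, where 7.54% of all genes were lower and 16.6% higher. The members' median log2 fold change there was -0.47, against 0.16 over all genes. In LPS 4 h, 2 members were higher and 0 lower, where 8.43% of all genes were higher and 39.7% lower. The median of the members was -0.20 and that of all genes -0.52. After centring samples on their median gene, 1871 genes were higher and 1529 lower in place of 990 and 4660, and the 2 called members were still *Cfb* and *C3*. In LPS 72 h, 2 members were higher and 2 lower, where 13.0% of all genes were higher and 14.4% lower. Their median was -0.41, against 0.08 over all genes. Leaving out LPS 72 h replicate 3 changed these counts to 0 higher and 4 lower, and leaving out RANKL 72 h replicate 3 left 1 lower member, *Cfb*.

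RANKL and LPS were also compared at the same time, with culture time matched. At 4 h, *Cfb* was lower, with a log2 fold change of -1.94 (SE 0.46, adjusted p = 0.00247), as was *C3* with -0.97 (SE 0.23, adjusted p = 0.00246), and *C3ar1* was higher with 0.62 (SE 0.16, adjusted p = 0.00452), each for RANKL against LPS in limma. These 2 lower and 1 higher members stand beside 8.98% of all genes lower and 41.0% higher. After centring samples on their median gene the difference of *C3ar1* was 0.06 and was not called, and its call was also lost without RANKL 4 h replicate 2 or LPS 4 h replicate 1. At 72 h, *Cfb* under RANKL was 20.1-fold lower than under LPS, with a log2 fold change of -4.33 (SE 0.46, adjusted p = 6.78e-06) in limma, and *C3* was 2.55-fold lower, at -1.35 (SE 0.23, adjusted p = 0.000326). The ranges did not overlap for either gene. These 2 lower and 0 higher members stand beside 12.8% of all genes lower and 23.3% higher. Without LPS 72 h replicate 3, both were still lower, at -3.85 for *Cfb* and -1.12 for *C3*, and the 3 C1q genes and *Cfp* were then called higher in RANKL 72 h, by log2 fold changes of 0.84 for *Cfp* and 0.90 to 0.97 for the C1q genes. With all samples, the C1q differences were 0.59 to 0.64 and not called.

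The 2 times of each stimulus were compared directly as well. At 72 h of RANKL, *Cfb* was lower than at 4 h, with a log2 fold change of -2.95 (SE 0.46, adjusted p = 0.000492), as was *C3ar1* with -0.77 (SE 0.16, adjusted p = 0.00351) in limma. The call of *C3ar1* was lost without RANKL 72 h replicate 3. These were 2 lower and 0 higher members, where 6.83% of all genes were lower and 16.4% higher. The difference of *C3* was -0.56 (SE 0.23, adjusted p = 0.0786) and was not called. Between the LPS times, 1 member, *C1qb*, was lower at 72 h, with -0.76 (SE 0.27, adjusted p = 0.0222) in limma, and 0 were higher, where 13.9% of all genes were lower and 44.2% higher. This call was lost without replicate 1 or 2 of either LPS group and with only these groups in the fit, and the value spanned -1.04 to -0.60 over the 6 omissions. Neither *Cfb* (-0.56, adjusted p = 0.3) nor *C3* (-0.18, adjusted p = 0.505) was called between the LPS times in limma, and the wide range of *Cfb* in LPS 72 h leaves its later course poorly measured.

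The rest of the pathway was described from a list of 46 other complement genes. Of these, 26 passed the filter on low values. The other 20 did not exceed 0.198 FPKM in any sample, and 4 of them were at 0 throughout. *Hc*, the gene of C5, reached at most 0.0173 FPKM, so its receptor was expressed in cells with almost no *Hc* mRNA. In RANKL 4 h, 0 of the 26 were called in limma, beside 0.111% of all genes higher and 0.00852% lower, so this count says little about complement genes. It was also 0 at an unadjusted p under 0.05 or with limma voom. In RANKL 72 h, 3 were higher and 4 lower, beside 16.6% and 7.54% of all genes. In LPS 4 h, 0 were higher and 7 lower, beside 8.43% and 39.7%, and in LPS 72 h 3 were higher and 8 lower, beside 13.0% and 14.4%.

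The 3 listed genes called higher in RANKL 72 h were *Cd59a*, *Cd55* and *Susd4*. Each encodes an inhibitor of complement, as do *Cr1l* and *Serping1*, which were not called, and *Clu*, which was lower. *Cd59a*, which encodes a blocker of the membrane attack complex, had 5.04, 6.52 and 5.36 FPKM in control and 14.7, 13.6 and 20.4 FPKM in RANKL 72 h, a log2 change of 1.49 (SE 0.34, adjusted p = 0.00506) in limma. *Cd55*, which encodes the decay accelerating factor, had 0.747, 0.656 and 0.689 FPKM and 1.87, 4.50 and 4.09 FPKM (2.08 (SE 0.51, adjusted p = 0.00835) in limma). *Susd4*, whose product is also a complement inhibitor, rose from at most 1 fragment in a control sample to 27 to 67 fragments, or 0.980, 0.377 and 0.737 FPKM, and with so few control fragments no fold is given. All 3 were higher in every RANKL 72 h sample than in any control sample. *Cd59a* and *Cd55* have near copies, *Cd59b* and *Cd55b*, with which reads could be shared. *Cr1l*, the gene of the rodent membrane inhibitor Crry, had 31.4, 31.4 and 34.9 FPKM in control and 35.3, 31.1 and 29.8 FPKM in RANKL 72 h (-0.02 (SE 0.10, adjusted p = 0.869) in limma). *Serping1*, the gene of the C1 inhibitor, had 5.69, 2.50 and 1.82 FPKM in control and 13.1, 7.21 and 1.99 FPKM in RANKL 72 h and was not called (0.94 (SE 0.64, adjusted p = 0.285) in limma). Its RANKL 72 h values had the same order as stromal marker RNA, and those of *Cd59a*, *Cd55* and *Susd4* did not. The part of stromal RNA in these values was not tested.

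Of the 4 genes lower in RANKL 72 h, *C2* and *C4b* encode components that form the classical pathway enzyme. *C2* had 4.17, 3.67 and 2.06 FPKM in control and 1.97, 1.53 and 0.937 FPKM in RANKL 72 h (-1.10 (SE 0.31, adjusted p = 0.0173) in limma), from 50 to 102 fragments. Its call was lost without RANKL 72 h replicate 3 or without control replicate 1 or 2. *C4b* had 3.83, 2.52 and 2.81 FPKM and 0.947, 0.631 and 0.407 FPKM (-2.09 (SE 0.44, adjusted p = 0.00343) in limma), and its near copy *C4a* makes this value uncertain. *Clu*, the gene of clusterin, an inhibitor of the membrane attack complex, and *Fcnb*, which encodes a ficolin of granulocyte precursors, were also lower, with log2 fold changes of -3.36 and -2.71. Both were lower in LPS 72 h too, at -3.35 and -5.91, where neutrophil marker RNA was at its lowest, and the part of that RNA in the falls was not tested. *C2* and *C4b* were not called in LPS 72 h (-0.08 and -0.95, adjusted p = 0.862 and 0.111 in limma). In the direct comparison of RANKL 72 h with LPS 72 h, 10 of the 26 were higher and 5 lower, beside 23.3% and 12.8% of all genes. *C2* was lower with -1.02 (SE 0.31, adjusted p = 0.0168) in limma, a call lost without RANKL 72 h replicate 3 or LPS 72 h replicate 2. Of the inhibitor genes, *Cd59a* was higher with 2.25 (SE 0.34, adjusted p = 0.000126) and *Cd46*, which encodes membrane cofactor protein and had a mean of at most 0.244 FPKM in these groups, lower with -1.03 (SE 0.36, adjusted p = 0.0289) in limma.

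**Figure D4:**
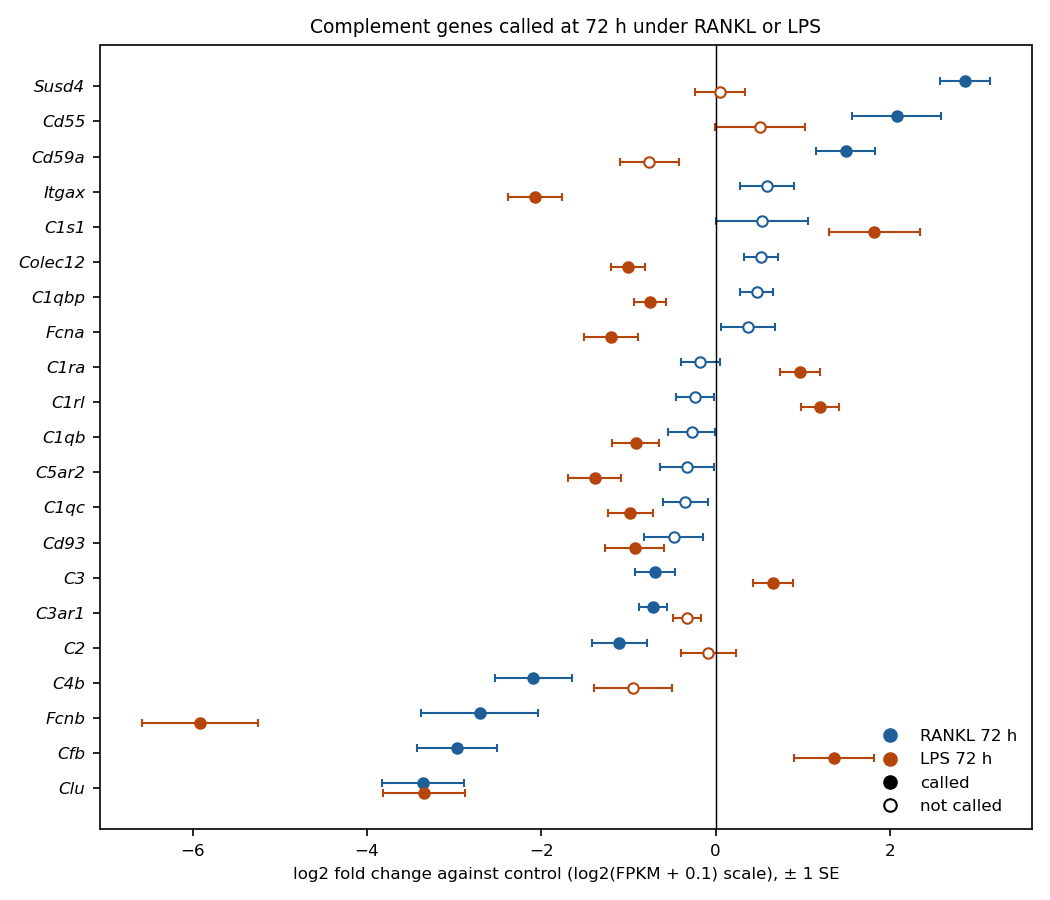
Log2 fold changes against control with bars of 1 standard error for the 21 complement genes called in RANKL 72 h or LPS 72 h, ordered by the RANKL value. Filled points passed the threshold. *Susd4*, *Cd55* and *Cd59a* have filled points right of 0 for RANKL and open points for LPS, and *Cfb* and *C3* have filled points on opposite sides of 0.

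Other genes were called under LPS. *C1ra*, *C1rl* and *C1s1*, genes of the C1r and C1s protease family that acts with C1q, were the 3 higher in LPS 72 h. *C1ra* had 10.1, 8.63 and 6.95 FPKM in control and 12.4, 15.6 and 23.9 FPKM in LPS 72 h (0.97 (SE 0.23, adjusted p = 0.00489) in limma). *C1rl* had 4.59, 3.29 and 3.60 FPKM and 8.60, 7.18 and 11.2 FPKM (1.20 (SE 0.22, adjusted p = 0.000933) in limma). *C1s1* had 10 to 21 fragments per sample in control and 52 to 103 in LPS 72 h (1.82 (SE 0.53, adjusted p = 0.016) in limma), and its call was lost without LPS 72 h replicate 3 or control replicate 2. *C1ra* and *C1s1* have near copies, *C1rb* and *C1s2*. Summed stromal marker RNA in LPS 72 h was 902, 843 and 1646 FPKM, with the highest value in replicate 3. *C1ra*, *C1rl* and *C1s1* were also highest in that sample, as were all members but *C3ar1*. Summed macrophage marker RNA was highest there as well. The part of stromal RNA in these values was not tested.

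Among receptors, *C5ar2*, which encodes the second C5a receptor, fell in LPS 4 h from 4.08, 2.96 and 3.76 FPKM to 0.720, 0.307 and 0.245 FPKM (-2.92 (SE 0.31, adjusted p = 4.24e-06) in limma) and was still lower in LPS 72 h (-1.39 (SE 0.31, adjusted p = 0.00362) in limma), while *C5ar1* was not called at either time. *Cd93*, a receptor once taken for a C1q receptor, fell from 64.7, 116 and 107 FPKM to 15.2, 35.7 and 21.5 FPKM in LPS 4 h (-2.03 (SE 0.34, adjusted p = 0.000185) in limma). Of the complement receptor integrins, *Itgax*, the alpha chain of CR4, was lower in LPS 72 h at 3.31, 2.39 and 1.88 FPKM against 15.1, 8.06 and 9.98 FPKM in control (-2.07 (SE 0.31, adjusted p = 0.000218) in limma). *Itgam*, the alpha chain of CR3, had 207, 233 and 505 FPKM in LPS 72 h against 177, 177 and 252 FPKM in control and was not called (0.54 (SE 0.26, adjusted p = 0.119) in limma). *Fcna*, a ficolin gene of macrophages, fell from 27.0, 22.6 and 14.3 FPKM to 7.49, 6.43 and 14.6 FPKM in LPS 72 h (-1.20 (SE 0.31, adjusted p = 0.00871) in limma). After centring samples on their median gene, 1 higher and 2 lower listed genes were called in LPS 4 h in place of 0 and 7.

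Members were also set beside the 9486 genes expressed well enough to compare, by the Pearson correlation of log2(FPKM + 0.1) over the 15 samples, which share groups and so are no independent points. *Cfb* was most like *Spic* (r = 0.978), the gene of a transcription factor of red pulp macrophages, followed by *Rnaset2a* (0.957) and *Milr1* (0.951). *Cfp* was most like *Lyz2* (0.950), the macrophage lysozyme, and *C3ar1* most like *Ctsb* (0.934), the gene of cathepsin B. For *C3* the nearest gene was *Notch1* (0.919), and for *C5ar1* *Tpm3* (0.887). Among the members, the C1q genes followed each other, with r = 0.975 between *C1qb* and *C1qc*, 0.934 between *C1qa* and *C1qc* and 0.929 between *C1qa* and *C1qb*. *C3* and *Cfb* had r = 0.906.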

How the data were processed

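RNA-seq of 15 BMDM samples was analysed from 1 table. The authors deposited FPKM values, made from total exon fragments, mapped reads and exon length with StringTie and Ballgown, 1 value per gene and sample with no pooling. The submitters' processing notes name GRCm38.p4 and mm10. The aligner, the strand setting and the annotation version are not given in the sources used here. The table used here breaks off within the row after *Tti2* in alphabetical order. Later genes were not analysed here, so ranks and shares of summed FPKM are over the 20089 genes up to *Tti2*, and 0 columns of samples were left unused. Groups came from the labels.

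The FPKM values of each gene are whole multiples of the worth of 1 fragment. Recovery of fragment numbers succeeded for each of the 14485 genes with values above 0 in 3 or more samples (100% within 0.01 of a whole number), and in simulated data for 3000 of 3000 genes. Depth was 18306184 to 20330207 fragments per sample (median 19351141). Counting error is therefore small for the members, and fragments are not independent molecules, so it is a lower limit.

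Values were tested as log2(FPKM + 0.1) in limma 3.58.1 (R 4.3.3), with lmFit and eBayes with a trend on 5 groups, over the 11743 genes whose mean reached 0.1 FPKM. The methods of the study use the folds 1.5 and 0.66 with p under 0.05, and here p was Benjamini-Hochberg adjusted. Simulated for RANKL 72 h against control over 11743 genes, the fit called 63 of 100 genes changed 2-fold, 89 of 100 changed 4-fold and 10 of 11543 unchanged. Ratios of C1q chains were compared by two-sided exact permutation tests. Alternatives covered the pseudocount, the filter, the scaling, the groups in the fit, the trend, the adjustment of p, limma voom on recovered fragments, a stromal covariate, a replicate block and leaving out each replicate. The members and all lists were chosen with earlier results of these data known. The text names the members, other listed complement genes called in a comparison (at most 6 in each direction by size, with those not called or beyond that number chosen after their values were seen), the genes most like each member and some of the 9 listed regulators. Some listed genes are not reported here.

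Replicates were numbered as in the labels, where nothing states what a number marks. Same-numbered samples deviated together from their group means, over 9486 genes, with every correlation above 0.1 between control and RANKL 4 h (0.707 to 0.842), control and LPS 4 h (0.440 to 0.624) and control and RANKL 72 h (0.136 to 0.318), but not between control and LPS 72 h (-0.030 to 0.184), LPS 4 h and LPS 72 h (-0.151 to 0.068) or RANKL 72 h and LPS 72 h (-0.229 to -0.021). Gene positions are from GENCODE M21, promoter windows from RefSeq on GRCm38.p6. Python 3.11.15, pandas 2.3.3, numpy 2.4.6, scipy 1.17.1 and matplotlib 3.10.9 were used.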

Additional observations from a re-analysis of the deposited data

Results flagged for a closer look

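The responses to 1 stimulus at its 2 times share the control samples, so their difference was tested directly between the times, with limma over 11743 genes. Under RANKL, 2 members and 10 other listed complement genes differed between 72 h and 4 h, beside 16.4% of all genes higher and 6.83% lower. The log2 fold change from 4 h to 72 h was -2.95 for *Cfb* and -0.77 for *C3ar1*. It was also negative for *C4b* (-2.16), *C2* (-1.12), *Clu* (-2.91) and *Fcnb* (-2.72). It was positive for *Susd4* (2.85, fitted on 27 to 67 fragments against at most 1), *Cd55* (1.83), *Cd59a* (1.64), *Masp1* (0.915), *Colec12* (0.62) and *C1qbp* (0.61). The value of *Susd4* spanned 0.74 to 6.03 over the alternatives, so its size is not settled, although its call was kept. The values of *C1qbp*, *Colec12* and *Masp1* each lost their call when samples were centred on their median gene, and *Colec12*, *Masp1* and *Cd55* with the stromal covariate. With a replicate left out, the call was lost in 5 of 6 cases for *Masp1*, 4 of 6 for *C1qbp* and for *Colec12*, 3 of 6 for *C2*, 2 of 6 for *Cd55* (without RANKL 72 h replicate 2 or 3) and 1 of 6 for *C3ar1*. *Masp1* also lost it in 7 of 11 alternatives.

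Under LPS, 1 member and 11 other listed genes differed between the times, beside 44.2% of all genes higher and 13.9% lower. The log2 fold change from 4 h to 72 h was -0.76 for *C1qb*, whose call was lost in 4 of 6 omissions of a replicate, as it was in 3 of 6 for *C1s1* and *Fcna* and 2 of 6 for *Cd93*. Negative values were also those of *Fcnb* (-5.29), *Clu* (-2.79), *Itgax* (-2.11) and *Fcna* (-0.96). *C1rl* (1.84), *C5ar2* (1.53), *Cd46* (1.37), *C1s1* (1.35), *Cd93* (1.10), *Itgam* (1.05) and *Itgb2* (0.75) had positive values, of which all but *C1rl* and *C5ar2* lost their call with samples centred on their median gene, since the median of all genes differed by 0.52 between these times. No group had the 4 samples needed to look for single outlying values.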

How the results depend on the processing

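Of 64 differences of members, 17 were called, and no called value changed sign under an alternative or with a replicate left out. With a replicate left out, 77 of 102 repeats of the called values kept their call. The falls of *Cfb* in RANKL 72 h and the rises of *Cfb* and *C3* in LPS 4 h kept theirs in every repeat. The calls of *C3* in RANKL 72 h (5 of 6 repeats), of *C3*, *Cfb* and *C1qb* in LPS 72 h and of *C1qb* between the LPS times (4 of 6 each) were lost most often. Groups of 3 limit what can be called, and in simulated RANKL 72 h data 63 of 100 2-fold changes were.

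The number of called members changed by more than 1.5 times in these cases. In RANKL 72 h against control it was 5 with the stromal covariate, in place of 3. In LPS 72 h against control it was 2 with no filter, 2 with median centring and 1 with only these groups in the fit, in place of 4. In RANKL 72 h against LPS 72 h it was 4 with equal sums and 4 with unadjusted p, in place of 2. In RANKL 72 h against RANKL 4 h it was 6 with the stromal covariate, in place of 2, and in LPS 72 h against LPS 4 h 5 with median centring and 0 with only these groups, in place of 1. For the other listed genes, the stromal covariate gave 11 in place of 7 in RANKL 72 h, and median centring 3 in place of 7 in LPS 4 h and 3 in place of 5 in RANKL 4 h against LPS 4 h. Counts over all genes moved as well. Over the alternatives they were 2156 to 3431 in RANKL 72 h and 2492 to 3640 in LPS 72 h against control. They were 3405 to 4566 in RANKL 72 h against LPS 72 h, 2057 to 3329 between the RANKL times and 5433 to 6991 between the LPS times. These changes are therefore not read as results about complement genes, and their cause was not tested.

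With a replicate left out, called members numbered 0 to 0 in RANKL 4 h, 1 to 3 in RANKL 72 h, 2 to 3 in LPS 4 h, 1 to 4 in LPS 72 h, 2 to 4 in RANKL 4 h against LPS 4 h, 2 to 6 in RANKL 72 h against LPS 72 h, 1 to 2 between the RANKL times and 0 to 4 between the LPS times. Other listed genes numbered 4 to 7 in LPS 4 h, 3 to 7 in RANKL 4 h against LPS 4 h and 6 to 8 between the RANKL times. In the same omissions, all genes called numbered 2060 to 2758 in RANKL 72 h, 5169 to 5718 in LPS 4 h and 2477 to 3959 in LPS 72 h. They numbered 5459 to 5807 in RANKL 4 h against LPS 4 h and 3589 to 4846 in RANKL 72 h against LPS 72 h. Between the RANKL times they numbered 1939 to 2519, and between the LPS times 6281 to 7114. Over all genes, RANKL 4 h against control gave 14 calls, 1 to 15 with a replicate left out, 0 with only these groups, 3 without a trend, 301 with unadjusted p and 24 with the replicate block, which changed no count of called members. Median centring gave 3400 in place of 5650 in LPS 4 h and 3485 in place of 5872 in RANKL 4 h against LPS 4 h.

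Differences near 0 that were not called changed sign. Median centring did so in LPS 4 h against control for *C1qa* (0.29), *C1qb* (0.42), *C1qc* (0.18), *C5ar1* (0.55) and *Cfp* (0.32), in RANKL 4 h against LPS 4 h for *C1qa* (-0.12), *C1qb* (-0.27), *C1qc* (-0.021) and *Cfp* (-0.23), and in LPS 72 h against LPS 4 h for *C3ar1* (-0.41) and *Cfp* (-0.24). *C1qa* in RANKL 72 h was 0.061 with equal sums, and against LPS 72 h -0.087 with the stromal covariate. With a replicate left out, RANKL 4 h against control spanned -0.083 to 0.38 for *C1qa*, -0.069 to 0.32 for *C1qb*, -0.056 to 0.32 for *C1qc*, -0.0091 to 0.12 for *C3ar1*, -0.27 to 0.014 for *C5ar1* and -0.40 to 0.35 for *Cfb*. *C1qa* in RANKL 72 h spanned -0.31 to 0.077. In LPS 4 h, *C1qb* spanned -0.37 to 0.023 and *C5ar1* -0.17 to 0.10, and in LPS 72 h *Cfp* spanned -0.30 to 0.49. *C5ar1* spanned -0.22 to 0.035 in RANKL 4 h against LPS 4 h and -0.31 to 0.15 in RANKL 72 h against LPS 72 h. Between the LPS times *C3* spanned -0.41 to 0.11 and *Cfp* -0.047 to 0.74. *C1qb* in LPS 72 h spanned -1.19 to -0.75.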

Other observations

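Values of some of the 9 listed regulators of macrophage genes are given as context, and their action on the complement genes was not tested. *Cebpb*, which encodes a C/EBP factor of the acute phase response, measured 139.5, 112 and 113 FPKM in the control samples, 65.1, 66.8 and 58.7 FPKM in those of RANKL 72 h (-0.93 (SE 0.13, adjusted p = 0.000205) in limma), 597, 424 and 521 FPKM in LPS 4 h (2.07 (SE 0.13, adjusted p = 3.97e-08) in limma) and 289.6, 279 and 273 FPKM in LPS 72 h (1.21 (SE 0.13, adjusted p = 2.18e-05) in limma). It was thus lower in RANKL 72 h and higher in both LPS groups than in control, as *Cfb* and *C3* were, with the calls of *Cfb* and *C3* in LPS 72 h lost in 4 of 6 omissions of a replicate. *Nfkbiz*, the gene of an NF-κB cofactor, rose from 4.53, 3.28 and 5.17 FPKM to 184, 197 and 138 FPKM in LPS 4 h (5.30 (SE 0.22, adjusted p = 1.49e-09) in limma) and was not called in RANKL 72 h (-0.20 (SE 0.22, adjusted p = 0.524) in limma). *Nfkb1*, the gene of NF-κB p50, was higher in LPS 4 h (2.78 (SE 0.11, adjusted p = 1.24e-09) in limma), where *Cfb* and *C3* were higher. It was also higher in RANKL 72 h (0.62 (SE 0.11, adjusted p = 0.00111) in limma), where *Cfb* and *C3* were lower. *Spi1*, the gene of PU.1, was not called in any comparison with control. It ranged over 165 to 191 FPKM in control, 169 to 222 FPKM at 72 h of RANKL and 166 to 189 FPKM at 72 h of LPS. At 4 h it lay wholly above control, at 200 to 253 FPKM under RANKL and 250 to 281 FPKM under LPS. The log2 fold change was 0.36 (SE 0.12, adjusted p = 0.614) in RANKL 4 h and 0.57 (SE 0.12, adjusted p = 0.00145) in LPS 4 h (limma). The latter, a fold of 1.48, was just short of the threshold.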
